A study of Mus musculus with 37 samples.

Results

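De novo lipogenesis builds fatty acids in the liver from citrate carbon. The 10 genes described here are Acly, Acaca, Acacb, Fasn, Me1, Elovl6, Scd1, Scd2, Srebf1 and Thrsp. They were selected by name as enzymes of the pathway and 2 of its regulators, and every probe named for one of these symbols was taken, whatever its values. The choice was made with earlier results of these data known, so comparisons of these genes with all probes are descriptive. These 10 of 21450 gene symbols were measured by 17 of 30146 probes, and all 17 probes passed the filter on low counts, as did 18570 probes in all.

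Livers came from wild-type CD1 mice (Crl:CD1(ICR) stock) gavaged once a day with deionized water alone (vehicle) or with HFPO-DA (the ammonium salt of hexafluoropropylene oxide dimer acid, a short-chain perfluorinated compound) in that water, at 5, 0.5 or 0.1 mg/kg/day. Male mice were about 6 weeks old at the first dose, were dosed for 70 days before mating and 14 days of mating, and received 84 to 85 doses. Female mice were about 11 weeks old at the first dose and were dosed from 14 days before mating through pregnancy to lactation day 20 or 21, for 53 to 65 doses. From vehicle up to the highest dose the groups held 5, 5, 5 and 4 males and 5, 5, 4 and 4 females. Sex thus cannot be told apart from age, length of dosing or lactation. One fixed liver section was measured per mouse by TempO-Seq, which counts ligated probe pairs on RNA from formalin-fixed, paraffin-embedded tissue.

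As background, ATP-citrate lyase (Acly) splits citrate into acetyl-CoA, acetyl-CoA carboxylase (Acaca in the cytosol, Acacb at the mitochondrial surface) makes malonyl-CoA, and fatty acid synthase (Fasn) joins these units into palmitate with NADPH that malic enzyme (Me1) helps to supply. Elovl6 then lengthens palmitate, and the stearoyl-CoA desaturases Scd1 and Scd2 put in a double bond. In liver the pathway is driven by insulin and carbohydrate through the transcription factors SREBP-1c, a product of Srebf1, and ChREBP, while Thrsp (Spot 14) is a small nuclear protein that accompanies lipogenic enzymes.

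For the members whose change at 5 mg/kg is described most closely, the bases before the transcription start are given, so that the promoter can be read beside the values. RefSeq windows of the 250 bases before the start (build GRCm38.p6) were matched by symbol for 8 of the 10 genes, in 11 windows, as some genes have several starts. Fasn and Me1, raised in both sexes, and Thrsp, which was not, are printed 5′ to 3′ on the gene's strand. Capitals mark the CCAAT box, the site of the factor NF-Y, in either orientation.
Fasn (chr11:120824548-120824797, minus strand): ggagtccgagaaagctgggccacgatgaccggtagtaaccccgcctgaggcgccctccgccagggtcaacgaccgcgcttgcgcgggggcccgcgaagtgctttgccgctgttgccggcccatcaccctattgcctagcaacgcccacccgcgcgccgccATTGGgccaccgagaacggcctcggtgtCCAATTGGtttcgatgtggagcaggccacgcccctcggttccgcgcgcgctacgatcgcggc
Thrsp (chr7:97417551-97417800, minus strand): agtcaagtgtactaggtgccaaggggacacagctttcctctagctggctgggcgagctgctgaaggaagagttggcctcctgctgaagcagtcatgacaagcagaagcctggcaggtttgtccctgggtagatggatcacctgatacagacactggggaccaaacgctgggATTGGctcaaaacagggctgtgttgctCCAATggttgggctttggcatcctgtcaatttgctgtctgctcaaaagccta
Me1 (chr9:86695915-86696164, minus strand, the first of 2 starts): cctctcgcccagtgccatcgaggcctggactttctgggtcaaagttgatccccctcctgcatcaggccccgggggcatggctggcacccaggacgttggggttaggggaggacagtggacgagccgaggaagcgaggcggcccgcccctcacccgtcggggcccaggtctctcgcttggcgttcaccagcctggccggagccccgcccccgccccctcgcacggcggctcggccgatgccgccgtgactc
CCAAT stood 3 times before Fasn, where 2 of the matches overlap as CCAATTGG, 2 times before Thrsp and not in the window of Me1 printed here, which held 3 GC boxes (GGGCGG, either strand). The window of the other Me1 start held 1 CCAAT. Both strands of 11 member windows were searched. CCAAT was in 6 of 11 windows (5 of 8 genes), against 33.8% of 32851 windows in all, and GGGCGG in 4 of 11 windows (3 of 8 genes), against 32.7%. The half-site AGGTCA was found for Acly and Elovl6, against 14.0% of all windows. Only exact letters were matched, so near matches, such as gggtca in the printed windows of Fasn and Me1, were not counted. The E-box CACGTG (6.02% of all windows) and the sterol response element TCACNCCAC (1.05%) were not in any of the 11 windows, which says only that these letters are not in these bases.

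Counts were scaled to 1000000 per TMM-normalized library (CPM), and each gene is shown by its probe with the highest total count, called the leading probe. Because probes differ in efficiency, levels were not compared between genes. A probe was called where the adjusted p of edgeR's quasi-likelihood test, over all probes tested, was under 0.10, and a gene where any of its probes was called. Each standard error (SE) of a log2 fold change was derived from that test, as the absolute change divided by the square root of F. Total counts ran from 7952605 to 13878254 in females and from 2101495 to 10548222 in males, and 4 males had under 5000000 (1 at 0.1, 1 at 0.5 and 2 at 5 mg/kg), so low counts in males carry the larger error. Nothing in the labels says whether mice shared litters or processing days. Each treated group of a sex was set against the same vehicle mice, so the doses share their controls.

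At 5 mg/kg, 6 of the 10 genes were raised in male mice (Acaca, Elovl6, Fasn, Me1, Scd1 and Scd2) and 4 in female mice (Fasn, Me1, Scd1 and Scd2). In the edgeR fit of all mice, and in DESeq2, no member was lowered at that dose in either sex. The 1 lower member with an unadjusted p under 0.05 was Thrsp in males, which some other settings called (described with that gene). Over all probes, 4.21% were raised and 8.49% lowered in males, and 2.26% were raised and 2.26% lowered in females. In probes, 8 of the 17 were raised in males and 6 of 17 in females. The median log2 fold change of the 10 leading probes was 0.94 in males and 0.99 in females, beside medians of -0.11 and -0.02 over the leading probes of all genes. Every treated mouse lay above every vehicle mouse for 4 members in males and 3 in females, where 2.78% and 4.4% of all probes did so.

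**Figure D1:**
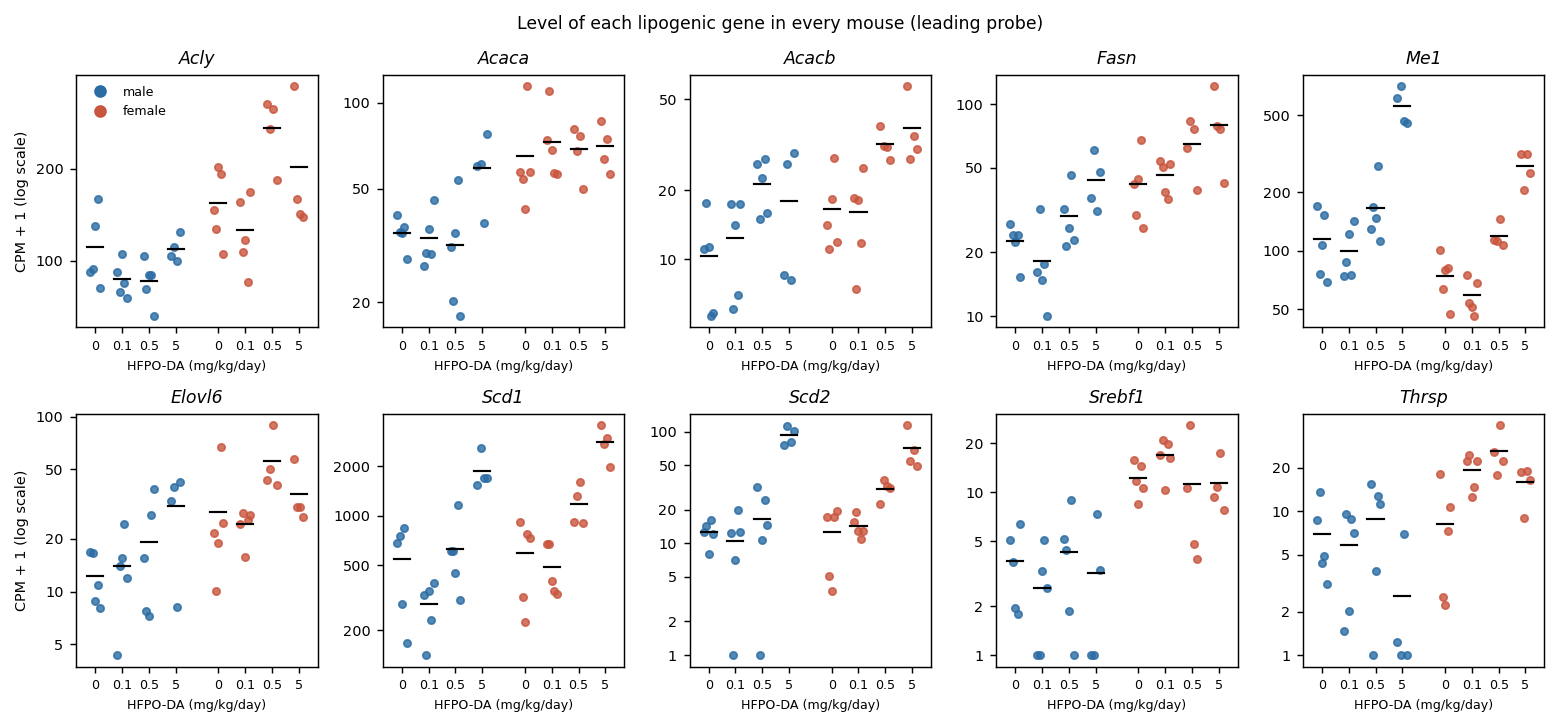
Level of the leading probe of each of the 10 genes in every mouse, as CPM + 1 on a log axis, by dose in mg/kg/day. Points are mice (blue males, red females) and bars are group means. Me1, Scd1 and Scd2 stand above all vehicle mice in every mouse at 5 mg/kg of both sexes, whereas Srebf1 and Thrsp lie near or at 0 in several males.

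Malic enzyme (Me1) makes NADPH from malate, and is known as a gene that peroxisome proliferators raise in rodent liver. In vehicle males the leading probe read 170, 74.9, 106, 152 and 68.1 CPM, and at 5 mg/kg 612, 707, 465 and 456 CPM. In vehicle females it read 99.8, 62.4, 78.3, 80.1 and 46.0 CPM, and at 5 mg/kg 315, 206, 315 and 252 CPM. The groups did not overlap in either sex. The log2 fold change was 2.29 (SE 0.26, adjusted p = 1.9e-08) in males, a 4.9-fold rise, and 1.89 (SE 0.26, adjusted p = 1.36e-06) in females, a 3.71-fold rise. A second probe of Me1 gave 2.04 (SE 0.29) in males and 1.94 (SE 0.29) in females, again with no overlap.

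The lowest Me1 mean of each sex was that of the mice at 0.1 mg/kg. Means in males were 114 ± 45.6, 99.2 ± 30.7, 165 ± 63.0 and 560 ± 122 CPM (SD, n = 5, 5, 5 and 4) from vehicle to 5 mg/kg, and in females 73.3 ± 20.2, 57.9 ± 12.3, 119 ± 17.6 and 272 ± 53.2 CPM (SD, n = 5, 5, 4 and 4). In females at 0.5 mg/kg the values 113, 112, 145 and 106 CPM all lay above the vehicle mice, but the fit did not call the difference (log2 0.70, SE 0.25, adjusted p = 0.981). From 0.5 to 5 mg/kg Me1 rose in both sexes, by 1.76 on the log2 scale (SE 0.26, adjusted p = 1.09e-05) in males and 1.196 (SE 0.27, adjusted p = 0.0122) in females. Neither 0.1 nor 0.5 mg/kg was called against vehicle for Me1 in either sex, and 0.1 was not tested against 0.5 mg/kg.

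Scd1 is the main liver desaturase, which makes oleate and palmitoleate. Its probe read 679, 755, 289, 843 and 167 CPM in vehicle males and 1531, 2593, 1696 and 1703 CPM in males at 5 mg/kg. In females the vehicle mice read 911, 319, 223, 773 and 728 CPM and those at 5 mg/kg 3562, 2726, 2969 and 1992 CPM. Vehicle males spread from 167 to 843 CPM, and still the groups stood apart in both sexes. The rise was 3.44-fold in males (log2 1.78, SE 0.38, adjusted p = 0.00112) and 4.76-fold in females (log2 2.25, SE 0.38, adjusted p = 7.68e-05). The order of levels in males ran from 0.1 mg/kg (288 ± 101 CPM, SD, n = 5) through vehicle (547 ± 299.7, n = 5) and 0.5 mg/kg (629 ± 329, n = 5) to 5 mg/kg (1881 ± 482, n = 4), and the lower 3 overlapped. Females ran from 485 ± 173 CPM (n = 5) at 0.1 mg/kg and 591 ± 301 (n = 5) with vehicle to 1187 ± 336 (n = 4) at 0.5 and 2812 ± 650.0 (n = 4) at 5 mg/kg.

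Scd2, the desaturase of brain and of growing tissues that adult liver uses little, showed the largest fold change of the 10 genes in both sexes. Vehicle males held 11.7, 13.2, 7.09, 15.3 and 11.2 CPM and males at 5 mg/kg 74.3, 111, 79.9 and 101 CPM. In females the values were 16.1, 4.10, 2.72, 16.3 and 18.6 CPM with vehicle, and 113, 53.0, 68.0 and 48.0 CPM at 5 mg/kg. No treated mouse of either sex fell within the vehicle range. The log2 fold change was 2.97 (SE 0.60, adjusted p = 0.000614) in males and 2.60 (SE 0.59, adjusted p = 0.00386) in females, or 7.83-fold and 6.07-fold. Scd1 and Scd2 are close paralogs and the probe sequences were not used here, so reads crossing between them were not tested. The 2 males listed at 0 for Scd2, which allows up to 0.445 CPM at 0.1 mg/kg and 1.13 CPM at 0.5 mg/kg, read 141 and 611 CPM for Scd1.

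Among enzymes nearer the start of the pathway, fatty acid synthase rose about 2-fold in both sexes. Fasn read 26.1, 23.1, 21.4, 23.1 and 14.2 CPM in vehicle males and 34.9, 59.5, 30.4 and 46.7 CPM at 5 mg/kg, with no overlap (log2 0.996, SE 0.31, adjusted p = 0.0358). Vehicle females read 41.2, 28.9, 43.3, 67.0 and 24.98 CPM and females at 5 mg/kg 121, 77.7, 75.0 and 41.3 CPM. One treated female lay within the vehicle range (log2 0.94, SE 0.31, adjusted p = 0.0873). The second Fasn probe was also called, at 1.63 (SE 0.36, adjusted p = 0.00214) in males and 1.06 (SE 0.35, adjusted p = 0.0998) in females. The male call of the gene held, through at least 1 probe, in each of 9 fits that left out 1 mouse. The leading probe alone lost it in 1 of these (adjusted p of up to 0.153). The female call was lost in 7 of 9, without replicate 1, 2, 3 or 5 of the vehicle females or replicate 1, 2 or 3 at 5 mg/kg, where the leading probe had adjusted p of up to 0.461.

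Acaca, the cytosolic carboxylase, passed the test in males and not in females. Males at 5 mg/kg read 59.0, 60.1, 36.8 and 76.9 CPM against 39.3, 34.2, 33.8, 35.6 and 27.4 CPM with vehicle (log2 0.78, SE 0.27, adjusted p = 0.0705), and 1 treated male lay within the vehicle range. In females the log2 fold change was 0.11 (SE 0.27, adjusted p = 1.0). The male response minus the female one was 0.66 and was not called (SE 0.39, adjusted p = 0.572), so a difference between the sexes was not shown. A second probe of Acaca, with 1982 counts over all mice, was not called in males (log2 1.0, SE 0.81, adjusted p = 0.507). The male call was lost in 7 of 9 fits without 1 mouse, namely replicate 1, 2 or 4 at 5 mg/kg or replicate 2, 3, 4 or 5 of the vehicle males, with adjusted p of up to 0.221.

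Elovl6, the elongase that turns palmitate into stearate, read 31.8, 38.8, 7.13 and 41.4 CPM in males at 5 mg/kg and 15.9, 15.6, 7.89, 9.97 and 7.10 CPM in vehicle males. Of the 4 treated males, 3 lay above all vehicle males, and the one at 7.13 CPM was replicate 3, the mouse with the lowest total count of all 37. On other probes of Elovl6 this mouse read 37.9 and 13.1 CPM, the highest of its group, and 4.13 CPM, the lowest. The log2 fold change was 1.42 (SE 0.48, adjusted p = 0.061) in males and 0.36 (SE 0.47, adjusted p = 0.99) in females. Elovl6 had 4 probes, whose male values lay between 0.73 and 1.62 on the log2 scale, 1 of them called, and whose female values lay between -0.34 and 0.67. The male call was lost without replicate 2 or 4 at 5 mg/kg or replicate 3, 4 or 5 of the vehicle males (leading probe, adjusted p of up to 0.15).

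The mitochondrial carboxylase Acacb, whose malonyl-CoA restrains fatty acid entry into mitochondria, just missed the threshold in females. At 5 mg/kg females read 56.1, 26.4, 33.6 and 29.3 CPM against 13.1, 10.0, 17.2, 26.6 and 10.9 CPM with vehicle (log2 1.22, SE 0.41, adjusted p = 0.102), and only the lowest treated and the highest vehicle female overlapped. It was called in 9 of 11 other settings, and without replicate 4 of the vehicle females, the highest of its group (adjusted p = 0.0509). Males at 5 mg/kg read 7.55, 24.9, 7.13 and 28.1 CPM, and the 2 low values belonged to the 2 mice under 5000000 counts. The male log2 fold change was 0.89 (SE 0.42, adjusted p = 0.189), and 1.47 (adjusted p = 0.0296) once all 4 mice under 5000000 counts were left out. It was also called without replicate 2 of the vehicle males, at 1.16 (adjusted p = 0.0998).

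Acly, which supplies the acetyl-CoA, did not pass the test at 5 mg/kg. Males read 103, 110, 98.6 and 123 CPM, within the vehicle range of 80.1 to 158 CPM, with a log2 fold change of -0.02 (SE 0.25, adjusted p = 0.984). Females read 372, 158, 142 and 137 CPM, against 104 to 202 CPM with vehicle (log2 0.40, SE 0.24, adjusted p = 0.62). One female (replicate 1) stood above the rest of her group. She was also the highest of that group for Acaca, Acacb, Elovl6, Fasn, Scd1 and Scd2, and narrowly for Me1. For Srebf1 and Thrsp she was not. A second, low probe of Acly had 761 counts over all 37 mice and was not called.

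**Figure D2:**
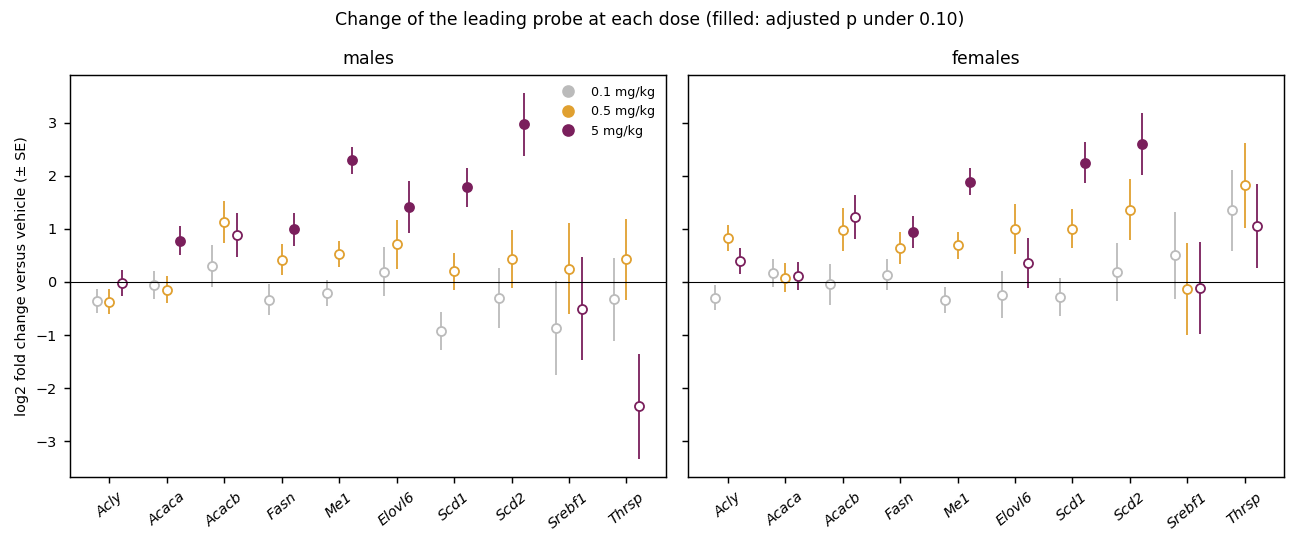
Log2 fold change versus vehicle mice of the same sex for the leading probe of each gene at each of the 3 doses, with bars of 1 standard error. Filled points have an adjusted p under 0.10. Only points at 5 mg/kg are filled, 6 in males and 4 in females, and Thrsp lies at -2.35 in males and 1.05 in females at that dose.

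Of the regulators, neither Srebf1 nor Thrsp was called at 5 mg/kg. Srebf1 read 4.08, 2.72, 0.936, 0.797 and 5.4 CPM in vehicle males and 0, 0, 6.38 and 2.32 CPM at 5 mg/kg (log2 fold change -0.50, SE 0.97, adjusted p = 0.833). Counts were 0 to 38 in these mice, and a count of 0 allows up to 0.706 CPM and 0.331 CPM in the 2 males listed at 0. In females the 5 mg/kg mice read 8.29, 9.76, 16.5 and 6.81 CPM and the vehicle mice 14.7, 10.7, 7.49, 13.5 and 9.58 CPM, which overlapped throughout (log2 -0.11, SE 0.87, adjusted p = 1.0). With a standard error near 0.9 a 2-fold change of Srebf1 was not detectable at this depth. Whether its single probe reads transcripts of SREBP-1a, SREBP-1c or both was not checked, as probe sequences were not used.

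Thrsp was measured from few counts in males. Vehicle males read 7.69, 12.7, 3.34, 3.85 and 2.13 CPM, from 15 to 98 counts. Males at 5 mg/kg read 0.236, 0, 6.00 and 0 CPM, from 1, 0, 16 and 0 counts, where 0 allows up to 0.331 and 0.463 CPM. Of these 4 males, 3 thus lay below every vehicle male, and the fourth, again the mouse with the lowest total, lay within their range. The log2 fold change was -2.35 (SE 0.99, adjusted p = 0.139).

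Female Thrsp values did not fall. Vehicle females read 17.2, 1.54, 1.22, 6.29 and 9.66 CPM and females at 5 mg/kg 17.7, 8.03, 18.2 and 15.5 CPM (log2 1.05, SE 0.79, adjusted p = 0.789). Set against each other, the male and female responses differed by -3.39 (SE 1.27, adjusted p = 0.329). Whether either was called depended on the mice and the filter. Without replicate 3 at 5 mg/kg, the 3 remaining males held 1 count in all, and Thrsp was lowered in males (adjusted p = 0.00154) and differed between the sexes (adjusted p = 0.0124). Leaving out all mice under 5000000 counts also gave both calls (adjusted p = 0.00192 and 0.00839). With all mice and no filter on low counts, Thrsp was called lower in males but not different between the sexes.

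**Figure D3:**
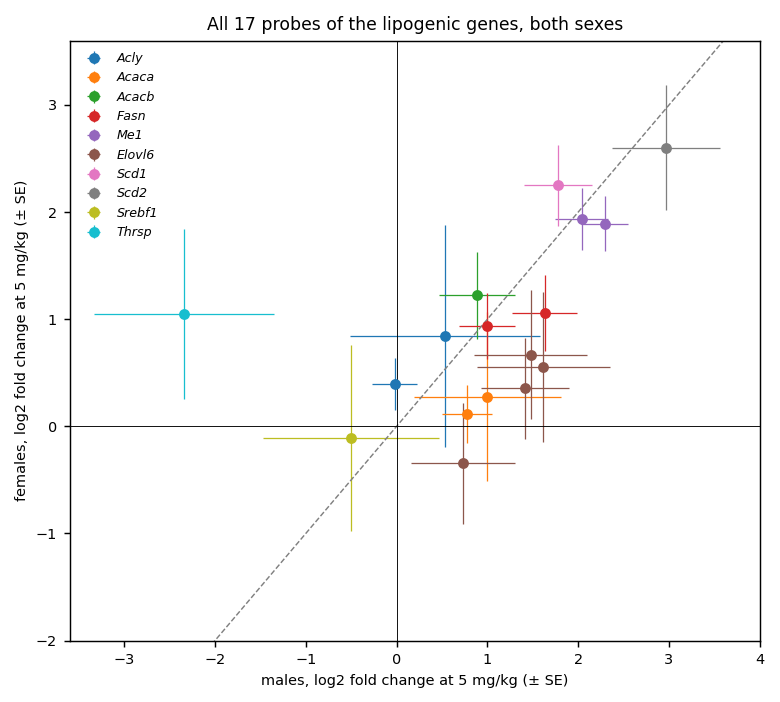
Log2 fold change at 5 mg/kg in males (x axis) and females (y axis) for all 17 probes of the 10 genes, with bars of 1 standard error and a dashed line of equal change. The Me1, Scd1 and Scd2 probes lie between 1.78 and 2.97 in males and between 1.89 and 2.60 in females, and Thrsp is the point to the far left.

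Between the sexes, none of the 10 genes differed in its response at any dose by the interaction of sex and dose, in edgeR or DESeq2. From the lowest to the highest dose, 0.0%, 0.0108% and 0.63% of all probes were called by edgeR, and 0, 1 and 1 of the 10 leading probes had an unadjusted p under 0.05, namely Acly at 0.5 mg/kg (log2 -1.195, SE 0.34, adjusted p = 0.632) and Thrsp at 5 mg/kg. At 5 mg/kg the interaction was 0.40 (SE 0.36) for Me1, -0.47 (SE 0.53) for Scd1, 0.37 (SE 0.81) for Scd2 and 0.06 (SE 0.43) for Fasn, on the log2 scale, with adjusted p of 0.809 or more for these genes. These standard errors leave room for differences of about 1 log2 unit for Me1 and Fasn, and for larger ones for Scd1 and Scd2.

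At 0.1 and 0.5 mg/kg edgeR called no member in either sex, while 0.0% of all probes were called at 0.1 mg/kg in both, 0.625% at 0.5 mg/kg in males and 0.113% at 0.5 mg/kg in females. Before adjustment the 2 sexes differed in count. In females at 0.5 mg/kg, 8 of 10 leading probes had an unadjusted p under 0.05, against 4.33% of all probes, and in males 2 of 10 (Acacb and Me1, both above vehicle), against 10.3%. The 8 in females were above vehicle as well (Acacb, Acly, Elovl6, Fasn, Me1, Scd1, Scd2 and Thrsp), by 0.64 to 1.82 on the log2 scale. The median over the 10 members was 0.90 in females and 0.43 in males, beside -0.03 and -0.07 over all genes. At 0.1 mg/kg 1 leading probe had an unadjusted p under 0.05 in males, that of Scd1 (log2 -0.92, SE 0.35, adjusted p = 0.624), and 0 had one in females, and DESeq2 called 0 in both.

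The female mice at 0.5 mg/kg held some of the highest values of the set. Acly read 324, 268, 312 and 183 CPM (log2 0.82, SE 0.24, adjusted p = 0.547), Elovl6 42.5, 48.9, 88.1 and 39.8 CPM, and Thrsp 24.7, 16.9, 38.6 and 21.4 CPM. For these 3 genes the mean at 0.5 mg/kg was above that at 5 mg/kg, 272 against 202 CPM for Acly, 54.8 against 35.2 CPM for Elovl6 and 25.4 against 14.9 CPM for Thrsp, with overlapping groups and no call between these doses. Me1 and Scd2 had no overlap with vehicle females at 0.5 mg/kg, where 1.52% of all probes had none with all treated mice above, and in males no member did so (0.652% of all probes). DESeq2 on all mice called Acly in these females, and DESeq2 with each sex fitted apart, a setting added after the data were seen, called Acacb, Acly, Me1, Scd2 and Thrsp. Over all probes given an adjusted p, DESeq2 on all mice called 76 of 4792 in this comparison. With each sex fitted apart it called 302 of 7784.

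From 0.5 to 5 mg/kg, Acaca, Me1, Scd1 and Scd2 rose in males and Thrsp fell, 5 of 10 genes. In probes, 5 of 17 rose and 1 of 17 fell, against 8.73% of all probes called in either direction. In females Me1 alone was called, through 2 of 17 probes, against 1.48%. Acaca rose by 0.92 (SE 0.28, adjusted p = 0.0397), Scd1 by 1.58 (SE 0.37, adjusted p = 0.00769) and Scd2 by 2.54 (SE 0.59, adjusted p = 0.00614) on the log2 scale. The log2 change of Thrsp was -2.78 (SE 0.997, adjusted p = 0.0955), a call kept in 3 of 9 fits without 1 mouse, those without replicate 2 or 3 at 0.5 mg/kg or replicate 3 at 5 mg/kg, with adjusted p up to 0.194 in the others, and in 5 of 11 other settings. Acaca lost its call without replicate 2 at 0.5 mg/kg or replicate 4 at 5 mg/kg (adjusted p of up to 0.141). In females Scd1 and Scd2 each differed by 1.24 between these doses, with no overlap and adjusted p of 0.176 and 0.625. No share of all probes without overlap is given for these doses, so that trait is not shown to be particular to the members. Without replicate 1 of the females at 5 mg/kg, Acly was also called, lower at 5 than at 0.5 mg/kg (log2 -0.90, adjusted p = 0.075).

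Vehicle mice of the 2 sexes differed in 2 of the 10 genes, both lower in males. In probes this was 2 of 17, where 2.6% of all probes were called in either direction. Acaca averaged 34.1 ± 4.29 CPM in males and 64.1 ± 28.4 CPM in females (SD, n = 5 each), a log2 difference of -0.91 (SE 0.26, adjusted p = 0.0582), with no overlap. Fasn was called through its second probe (-1.18, SE 0.34, adjusted p = 0.068), while the leading probe gave -0.93 (SE 0.29, adjusted p = 0.11). Srebf1 averaged 2.79 ± 1.99 CPM in males and 11.2 ± 2.91 CPM in females (SD, n = 5 each), with no overlap, though the fit did not call it (-1.997, SE 0.86, adjusted p = 0.336). For the vehicle sexes, too, no share of all probes without overlap is given. Over fits that left out 1 of the 10 vehicle mice, 0 to 2 genes were called, none without vehicle female replicate 4 or vehicle male replicate 2, 3 or 5, and 1 without female replicate 3 or male replicate 1 or 4.

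Other genes around the pathway were taken from 3 lists, of regulators, of enzymes that supply precursors and NADPH, and of other targets of SREBP-1c and of the oxysterol receptor LXR. For all 3 lists the background at 5 mg/kg was 4.21% of probes raised and 8.49% lowered in males, and 2.26% each in females. At 5 mg/kg, 4 of the 10 other targets were called in each sex, all raised, and they were the same 4 genes. Lpcat3, which makes polyunsaturated phosphatidylcholine, rose by 1.54 (SE 0.23, adjusted p = 7.82e-06) in males and 0.92 (SE 0.23, adjusted p = 0.0111) in females on the log2 scale, and was also raised in males at 0.5 mg/kg (0.95, SE 0.22, adjusted p = 0.0374). Fads2, the delta-6 desaturase, rose from 1014 ± 392 to 1842 ± 355 CPM in males (adjusted p = 0.0275) and from 948 ± 171 to 2053 ± 381 CPM in females (adjusted p = 0.0049). Elovl5, an elongase of polyunsaturated fatty acids, rose by 1.01 (SE 0.27) and 0.89 (SE 0.27) on the log2 scale, and Gpam, the first enzyme of triglyceride synthesis, by 0.76 (SE 0.24) and 1.04 (SE 0.24). The list's median was 0.31 in males and 0.92 in females, beside -0.11 and -0.02 over all genes. Its rise was not shared by every gene, as 6 of 10 leading probes lay above 0 in males and 9 of 10 in females. In males Abca1 (-0.27), Abcg8 (-0.29), Mylip (-0.64) and Pnpla3 (-1.77) lay below 0, and in females Mylip (-0.76), none of them called.

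Of 14 precursor and NADPH genes, 4 were raised and 3 lowered in males, and 1 was raised and 2 lowered in females. Both genes lowered in females, Pklr and Khk, were also lowered in males. Pklr, liver pyruvate kinase and a ChREBP target, went from 28.1 ± 19.9 to 5.56 ± 5.53 CPM in males (log2 -2.22, SE 0.50, adjusted p = 0.00261) and from 42.5 ± 9.83 to 11.2 ± 2.68 CPM in females (log2 -1.93, SE 0.48, adjusted p = 0.0123). Khk, ketohexokinase of fructose breakdown, went from 374 ± 58.5 to 157 ± 18.5 CPM in males (adjusted p = 2.23e-06) and from 346 ± 67.2 to 199.8 ± 35.5 CPM in females (adjusted p = 0.00312).

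Acss2, which makes acetyl-CoA from acetate, rose in males from 5.19 ± 4.05 to 19.03 ± 8.51 CPM (log2 1.86, SE 0.51, adjusted p = 0.0142), and its female value was 1.49 (SE 0.50, adjusted p = 0.102). Pgd, an NADPH-producing enzyme of the pentose phosphate pathway, rose by 1.46 (SE 0.45, adjusted p = 0.0332) in males, with 0.80 (SE 0.44, adjusted p = 0.499) in females. Pgls of the same pathway was raised in females through 1 of its 2 probes (0.74, SE 0.22, adjusted p = 0.0559). A call of Taldo1 in males rested on a probe with 0 counts in all 5 vehicle males and 0, 0, 28 and 14 counts at 5 mg/kg, and the leading probe of that gene was not called (0.37, SE 0.18, adjusted p = 0.215). Outside the rule for named genes, and named after their values were seen, the other calls in males were Cs, citrate synthase, raised through its second probe (0.65, SE 0.23, adjusted p = 0.0776), and Pcx, pyruvate carboxylase, lowered (-0.49, SE 0.18, adjusted p = 0.0871). The median of this list was -0.14 in males and 0.24 in females.

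Where 8.49% of all probes were lowered in males and 2.26% in females, 1 of 17 regulators was called in each sex. This was Rxra, the shared partner of LXR and PPAR receptors, lowered in both. Its 2 probes gave -0.42 (SE 0.16, adjusted p = 0.1002) and -0.64 (SE 0.15, adjusted p = 0.00443) in males, and -0.55 (SE 0.16, adjusted p = 0.0437) and -0.58 (SE 0.15, adjusted p = 0.0174) in females, on the log2 scale. Median changes of the list were -0.19 in males and -0.10 in females, near the medians of all genes.

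**Figure D4:**
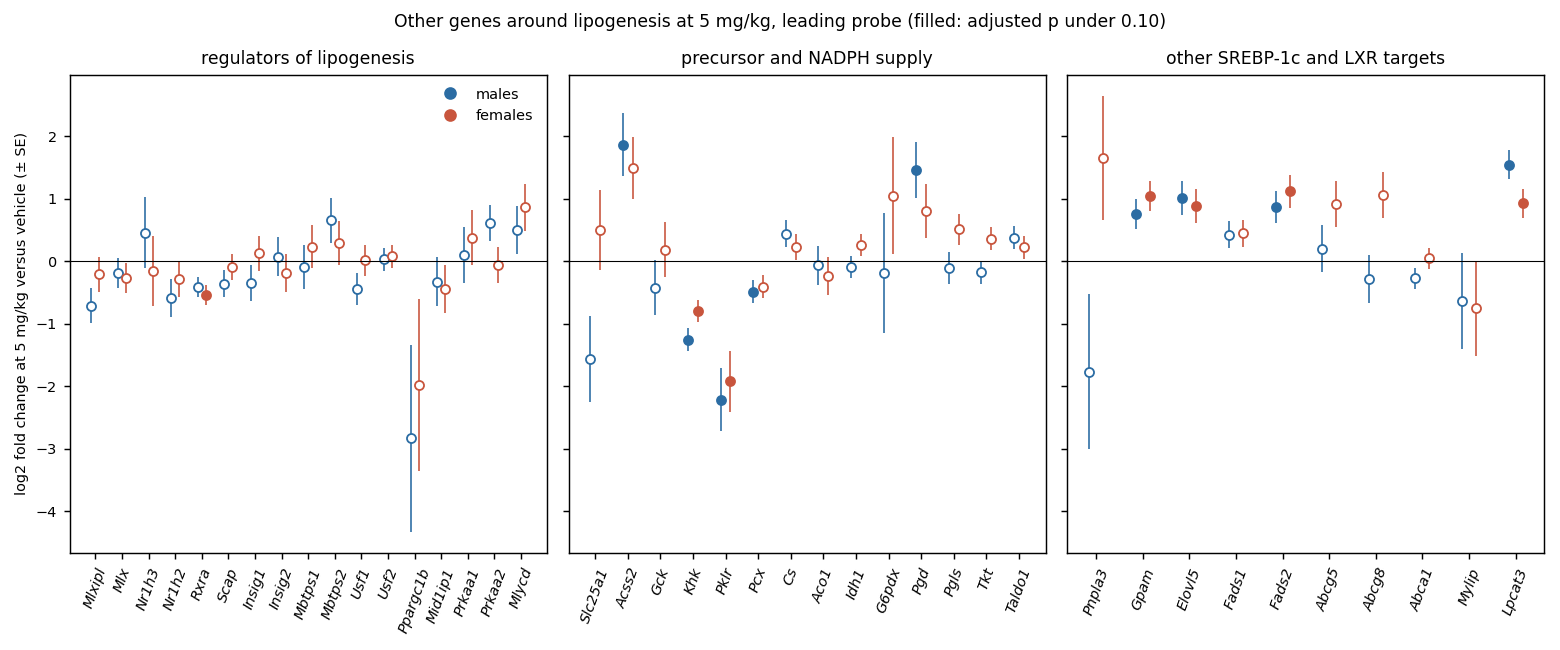
Log2 fold change at 5 mg/kg versus vehicle, with bars of 1 standard error, for the leading probes of 17 regulators, 14 precursor and NADPH genes and 10 other SREBP-1c and LXR targets (blue males, red females, filled where adjusted p is under 0.10). Khk and Pklr are filled below 0 and Gpam, Elovl5, Fads2 and Lpcat3 above 0 in both sexes.

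The section was checked against markers of liver cells and of fat, since adipocytes also hold these enzymes at high level. Adipocyte markers (6 genes, of which 1 passed the filter on low counts) summed to between 0 and 8.67 CPM in any mouse, and at 5 mg/kg to at most 3.09 CPM in males and 1.02 CPM in females, with Adipoq at 0 in 23 and Lep at 0 in 35 of 37 mice. Hepatocyte markers (6 genes) summed to 9425 to 16059 CPM in vehicle males and 10278 to 11878 CPM at 5 mg/kg, and to 14249 to 20434 and 12946 to 15238 CPM in females. In males 3 of these 6 were lowered (Serpina1a, Apob and Cps1) and in females 2 (Serpina1a and Ttr). Of all probes, 8.49% were lowered in males and 2.26% in females. Kupffer cell, stellate cell, endothelial and cholangiocyte lists had ranges that overlapped between vehicle and 5 mg/kg in both sexes, and 1 of their 16 genes tested, Kdr in males, was called (lowered). Their part in the changes of the lipogenic genes was not tested, and fewer cells of a type cannot be told apart from less RNA per cell in these sections.

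Within groups, mice high in one lipogenic gene tended to be high in others. Deviations of log2 CPM from the group mean were compared over 37 mice for all 45 pairs of the 10 leading probes. Pearson's r was above 0 for 40 pairs, with a median of 0.27 and a range of -0.12 to 0.59, and 8 pairs had a permutation p, adjusted over the 45, under 0.10. Acaca and Scd1 had r = 0.59 and Spearman's rho = 0.60 (permutation p = 0.00022 and 0.00014, adjusted p = 0.0099 and 0.00517), r = 0.53 in the 19 males and 0.66 in the 18 females, and 0.52 without the 2 mice farthest out. Acly and Fasn had r = 0.59 and rho = 0.61 (permutation p = 0.00062 and 0.00035, adjusted p = 0.0139 and 0.00525), with 0.28 in males, 0.80 in females and 0.55 without 2 mice. Srebf1 was the least tied to the others, with a median r of 0.08, and its counts were the lowest. Both genes of a pair were read from the same libraries with the same normalization, and the part of depth in r was not tested. No background from pairs of other genes is given, so these values are not shown to be particular to the members.

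**Figure D5:**
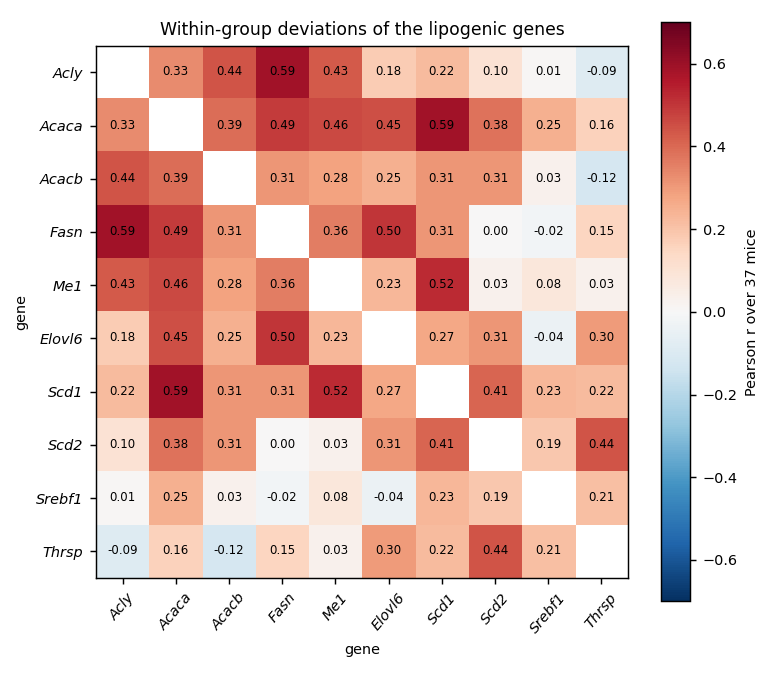
Pearson's r over 37 mice between within-group deviations of log2 CPM for each pair of the 10 lipogenic genes, red above 0 and blue below. The highest values, 0.59, are at Acaca with Scd1 and Acly with Fasn, and the row of Srebf1 is palest.

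Outside the 10 genes, the leading probes whose within-group deviations were most like the members' mean over the 37 mice were those of Fbxo2 (r = 0.639), Ntn4 (0.632), Rab14 (0.624), Ptov1 (0.611) and Pspc1 (0.611). These values describe the 37 mice and carry no test.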

How the data were processed

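Liver sections of 37 CD1 mice were profiled with TempO-Seq probes. Reads were counted per probe by the authors, who left out libraries of low depth or few probes, and the deposited values are whole-number counts without normalization, made with bcl2fastq 2.17.1.14 and Bowtie per the labels. The genome build of the probes is not given in the sources used here. Mice were grouped by sex and dose from the labels. Counts were fitted with edgeR 4.0.16 in R 4.3.3 (filterByExpr on the 8 groups, TMM, quasi-likelihood, 1 mean per group, all 37 mice), with Benjamini-Hochberg adjustment over 18570 probes and a threshold of 0.10, the false discovery rate of the study. The study's own tool, DESeq2 (here 1.42.0), was an alternative, as were other scaling, filters, thinning and leaving out mice. The fit was tested on simulated data. CPM used TMM-normalized library sizes, and log2 CPM a prior count of 2. Correlations used Python 3.11.15 with 100000 permutations within groups.

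The members and lists were chosen with earlier results of these data known. All 10 members are described, and for each other list the genes called at 5 mg/kg in both sexes plus up to 3 called in 1 sex by smallest adjusted p. The marker lists are described by counts and summed CPM. Replicates are separate mice, and limits for counts of 0 (3 counts) cover counting error only. One further precursor gene was taken off its list and is not reported here.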

Additional observations from a re-analysis of the deposited data

Results flagged for a closer look

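A gap wider than Dixon's limit was sought among the 4 or 5 mice of each of the 80 combinations of gene and group (leading probe, log2 CPM), where chance gives about 1 in 20, or 4, and 5 were found. Acly in 1 female at 5 mg/kg (replicate 1) was 372 CPM, above 137 to 158 CPM in the other 3. That female was also the highest of her group for most of the other members. Elovl6 in 1 male at 5 mg/kg (replicate 3) was 7.13 CPM, below 31.8 to 41.4 CPM. Other Elovl6 probes put this male highest (37.9 and 13.1 CPM) or lowest (4.13 CPM) of its group. Elovl6 in 1 female at 0.1 mg/kg (replicate 3) was 14.8 CPM, below 23.3 to 27.3 CPM. Scd2 was listed at 0 in 1 male at 0.1 mg/kg (replicate 2, with 6.09 to 18.8 CPM in the other 4) and in 1 male at 0.5 mg/kg (replicate 2, with 9.74 to 30.8 CPM). The male at 0.5 mg/kg and the Elovl6 male at 5 mg/kg were among the 4 mice under 5000000 counts, and the part of depth in their values was not tested.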

How the results depend on the processing

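The 5 mg/kg calls of Me1, Scd1 and Scd2 in either sex, and of Fasn in males, held under all 11 other settings and in all 9 fits without 1 mouse. For Fasn in males the leading probe alone had adjusted p of up to 0.15 under other settings and 0.153 without 1 mouse. The number of genes called at 5 mg/kg ranged from 4 to 8 in males and from 3 to 5 in females over the other settings, and from 4 to 7 and from 3 to 5 without 1 mouse. Calls over all probes moved with the setting too. In the main fit they were 2359 of 18570 in males at 5 mg/kg and 839 of 18570 in females. With each sex fitted apart they were 1120 of 16103 and 2093 of 17038, and with DESeq2 2830 of 17946 and 1264 of 10277. Among the 10 genes, males at 5 against 0.5 mg/kg gave 3 calls with each sex fitted apart in place of 5, and 4 to 6 under the other settings, where Thrsp was called in 5 of 11 and Fasn, not called at first, in 5 of 11. Over all probes, each sex fitted apart gave 556 of 16103 there, in place of 1622 of 18570. Females at 0.5 mg/kg gave 1 with DESeq2 and 5 with DESeq2 on each sex apart, in place of 0. Over all probes these 2 settings gave 76 of 4792 and 302 of 7784, in place of 21 of 18570. Females at 5 against 0.5 mg/kg gave 2 with no filter on low counts, with each sex apart and with DESeq2, and 3 with DESeq2 on each sex apart, in place of 1. Over all probes, 274 of 18570 were called in the main fit and 500 of 6987 with DESeq2. DESeq2 on each sex apart called 1123 of 17709. The interaction at 5 mg/kg gave 1 without mice under 5000000 counts in place of 0, where 187 of 20794 probes were called in place of 117 of 18570. Vehicle males against vehicle females gave 4 with DESeq2, 1 with counts thinned to the smallest total and 0 at a threshold of 0.05, in place of 2, and 3, with Elovl6 added, with no filter on low counts, with probes summed and without mice under 5000000 counts. Over all probes the vehicle sexes gave 483 of 18570 in the main fit and 812 of 8631 with DESeq2. Thinned counts gave 386 of 13745, and the threshold of 0.05 gave 340 of 18570. Leaving out 1 mouse gave 3 to 5, 1 to 2, 0 to 1 and 0 to 2 calls for males and females at 5 against 0.5 mg/kg, the interaction and the vehicle sexes. In females at 5 mg/kg Fasn lost its call with thinned counts (adjusted p = 0.487) and at a threshold of 0.05. Acaca in males lost its call with each sex apart and at 0.05, and Elovl6 with each sex apart, with thinned counts and at 0.05. The causes were not tested.

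Of 760 single-gene values under other settings, 15 changed sign, none of them called (log2 fold changes). At 5 mg/kg in males Acly was 0.075 with DESeq2 size factors, 0.0117 with probes summed, 0.075 with DESeq2, 0.0368 without mice under 5000000 counts and 0.0749 with DESeq2 on each sex apart. Srebf1 with thinned counts was 0.437 in males at 5 mg/kg, 0.171 in females at 0.5 mg/kg, -0.866 in females at 5 against 0.5 mg/kg and 1.13 for the interaction. In the latter female comparison Srebf1 was also -0.00441 with a mean of at least 10 counts, -0.00602 with each sex apart and -0.0137 without mice under 5000000 counts. Without those mice Acacb was 0.229 in males at 5 against 0.5 mg/kg and 0.262 for the interaction. Scd2 between vehicle sexes was -0.176 with thinned counts.

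Without 1 mouse, 40 of 820 values changed sign, none called. In females Acaca ranged from -0.026 to 0.39 at 0.5 mg/kg, from -0.0194 to 0.41 at 5 mg/kg and from -0.111 to 0.13 between these doses, Acacb from -0.0511 to 0.35 between these doses, Acly from -0.078 to 0.54 at 5 mg/kg, and Srebf1 from -1.05 to 0.185, -0.43 to 0.0445 and -0.316 to 0.92 in the same order of comparisons. In males Acaca ranged from -0.43 to 0.0225, Scd1 from -0.149 to 0.42 and Srebf1 from -0.457 to 0.62 at 0.5 mg/kg, and Acly from -0.11 to 0.118 at 5 mg/kg. For the interaction at 5 mg/kg Acly ranged from -0.56 to 0.0572, Fasn from -0.205 to 0.34 and Srebf1 from -1.7 to 0.099. Between vehicle sexes Scd1 ranged from -0.3 to 0.119, Scd2 from -0.214 to 0.25 and Thrsp from -0.73 to 0.343. Srebf1 and Thrsp had counts of 0 in 5 and 3 mice, in libraries both under and over 5000000 counts. No paired analysis was possible because the labels number no replicates across groups.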
